A study of Mus musculus with 10 samples.

Results

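MHC class I presentation genes are described here: 30 genes matched by symbol in a table of 55385 mouse genes. They comprise 2 classical and 11 nonclassical heavy chains, the light chain, 4 genes of peptide transport and loading, 5 of the immunoproteasome and its activator, the transactivator Nlrc5, the trimming enzyme Erap1, 3 chaperones of the endoplasmic reticulum (ER), and the lipid- and metabolite-presenting molecules Cd1d1 and Mr1. RNA was sequenced from 10 mouse samples of an ovarian tumour line that carries Arid1a and Pik3ca mutations in both groups and is spelled APV245 in the sample titles. In 5 samples the line carried shRNA1 against Il6 (genotype label: IL6 knockdown), and in the other 5 a non-mammalian control shRNA in pLKO.1-puro (genotype label: WT). No sample was treated. Strain, age and the number of clones per shRNA are not given in the sources used. The sample labels describe cells kept in DMEM, while the series design describes subcutaneous tumours. Nothing says that the samples of a group came from separate animals or cultures. The p-values therefore set the group difference against the spread between these samples, which may be technical.

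MHC class I molecules carry short peptides from inside the cell to its surface, where CD8 T cells and NK cells read them. Proteins are cut by the proteasome, the peptides are pumped into the ER by TAP and trimmed by Erap1, and chaperones load them onto a heavy chain paired with beta-2 microglobulin. Interferon-gamma is known to raise most of these genes together, swapping 3 catalytic proteasome subunits and acting on heavy chain promoters through NF-kB sites, interferon-stimulated response elements (ISRE) and the factor Nlrc5.

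Sequence before the RefSeq start is shown for some of the members whose levels moved together across the libraries. In the RefSeq promoter table (GRCm38.p6), 23 of the 30 members were found. The letters GGGANNNNCC of a kappaB site occurred on either strand, in the 250 bases before the start, in 9 of these 23 members, against 19.7% of 27025 genes. The ISRE letters GAAANNGAAA occurred in 3 of the 23 (B2m, H2-T22 and H2-T23), against 3.46% of genes. Most members with the kappaB letters are heavy chains, and the windows of H2-K1, H2-D1, H2-Q6 and H2-Q7 are nearly identical. These matches are therefore not separate cases to set against the share of all genes. Tap1, Psmb8, Psmb9, Psmb10, Psme1 and Erap1 had no kappaB match. Only these exact letters were counted, so a member without a match may still hold a looser form of the element. The 30-base windows below are written 5′ to 3′ on the strand of the gene, and capitals mark the kappaB match, where overlapping matches on both strands are merged. The H2-Q4 window lies in an exon of the antisense gene Gm11131 of GENCODE M21, and the H2-T22 window overlaps an exon of Gm6034 by 6 bases.
H2-K1, chr17:34000439-34000468, minus strand: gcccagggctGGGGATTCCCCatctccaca
H2-Q4, chr17:35379434-35379463, plus strand: atcaggggtgGGGATTTCCCatctccccag
H2-Q6, chr17:35424667-35424696, plus strand: gcccatggctGGGGATTCCCCatctcccca
H2-Q7, chr17:35439012-35439041, plus strand: gcccatggctGGGGATTCCCatctccccag
H2-T22, chr17:36042937-36042966, minus strand: gaaagtagctGGGAGAGTCCCtaattggct
H2-M3, chr17:37270098-37270127, plus strand: acccagcattGGAGATTCCCccatttcctc
B2m, chr2:122147550-122147579, plus strand: aactgaaaatGGGAAAGTCCCtttgtaacc
The window of H2-D1, which also matched, lies within an exon of its own gene model and is not shown. Calr, the remaining member with a match, varied little between libraries. A match is a description of the letters and not of binding.

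Longer upstream stretches are shown for the light chain gene and 1 classical heavy chain gene, ending just before the start of the gene model. In B2m the capitals mark first the ISRE match and then the kappaB match, which lie next to each other. In H2-K1 they mark the kappaB match.
B2m, chr2:122147487-122147685, plus strand: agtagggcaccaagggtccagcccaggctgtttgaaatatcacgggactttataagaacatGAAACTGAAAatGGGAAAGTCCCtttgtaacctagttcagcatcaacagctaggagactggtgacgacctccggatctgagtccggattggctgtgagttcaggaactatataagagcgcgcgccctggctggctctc
H2-K1, chr17:34000348-34000547, minus strand: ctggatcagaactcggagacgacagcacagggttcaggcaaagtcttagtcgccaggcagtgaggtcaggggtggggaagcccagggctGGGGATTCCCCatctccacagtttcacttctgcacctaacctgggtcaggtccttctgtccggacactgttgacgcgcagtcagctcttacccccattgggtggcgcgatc
Among other letters searched, CCAAT occurred in 16 of the 23 members (37.5% of all genes), TGACG in 12 (19.8%), and TTCNNNGAA, the letters of a GAS element, in H2-M3 and Psmb8 only (8.13%).

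The count totals were 17905397 to 19934278 in the IL6 shRNA1 libraries and 18224751 to 22682346 in the controls. The targeted gene, Il6, did not fall under the IL6 shRNA1 label, with 1.07, 1.83, 2.18, 1.80 and 1.75 CPM (counts scaled to a common library size) in libraries 1 to 5 against 1.61, 0.438, 2.06, 1.34 and 0.830 in the controls. Its log2 fold change was 0.44 ± 0.36 (SE, adjusted p = 0.44 by edgeR's quasi-likelihood test), and an exact two-sided permutation test gave p = 0.21 (n = 5 per group). Il6 had only 9 to 48 counts per library, and whether it fell in the tumour cells alone was not tested. Directions below are therefore those between the labels, IL6 shRNA1 over control. Leukocyte genes were present in all 10 libraries labelled as tumour cells. The summed level of 7 pan-leukocyte markers was 438.7 to 830.8 CPM in the IL6 shRNA1 libraries and 192.3 to 577 in the controls, and that of 9 epithelial markers 240.4 to 262.2 and 126 to 310. No marker of either list was at 0 when summed over the 10 libraries, and 8 of the 9 epithelial markers passed the filter on low counts. The most abundant epithelial marker, Krt8, had a log2 fold change of 0.42 ± 0.30 (SE, adjusted p = 0.37).

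Of the 30 members, 29 passed the filter on low counts and were tested among 15064 genes. At an adjusted p under 0.05, 3 members were called higher in the IL6 shRNA1 libraries (Erap1, H2-Q1 and H2-M3), where 5.62% of all genes were called higher. One of the 29, Cd1d1, was called lower, where 6.16% of all genes were called lower, and 25 were not called. These shares were uneven over the genome. Chromosome 1 held 268 of the 847 genes called higher, and chromosome 6 held 216 of the 928 called lower. On chromosome 17, which carries the heavy chains, 32 of 732 tested genes were called higher and 36 lower. DESeq2 called 15 members higher and 1 lower, where 9.66% and 7.48% of all genes were called in these directions, and limma voom called 6 and 1, where 6.08% and 6.31% were. The fitted fold change was positive for 27 of 29 members, with a median log2 value of 0.73, while over all genes the median was -0.01 and 47.9% were positive. At an unadjusted p under 0.05, 18 members were higher and 1 was lower, against 15.5% and 15.7% of all genes. The CPM of the groups did not overlap for 1 higher member (Erap1) and 1 lower member (Cd1d1), where 10.9% of all genes did not overlap.

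**Figure D1:**
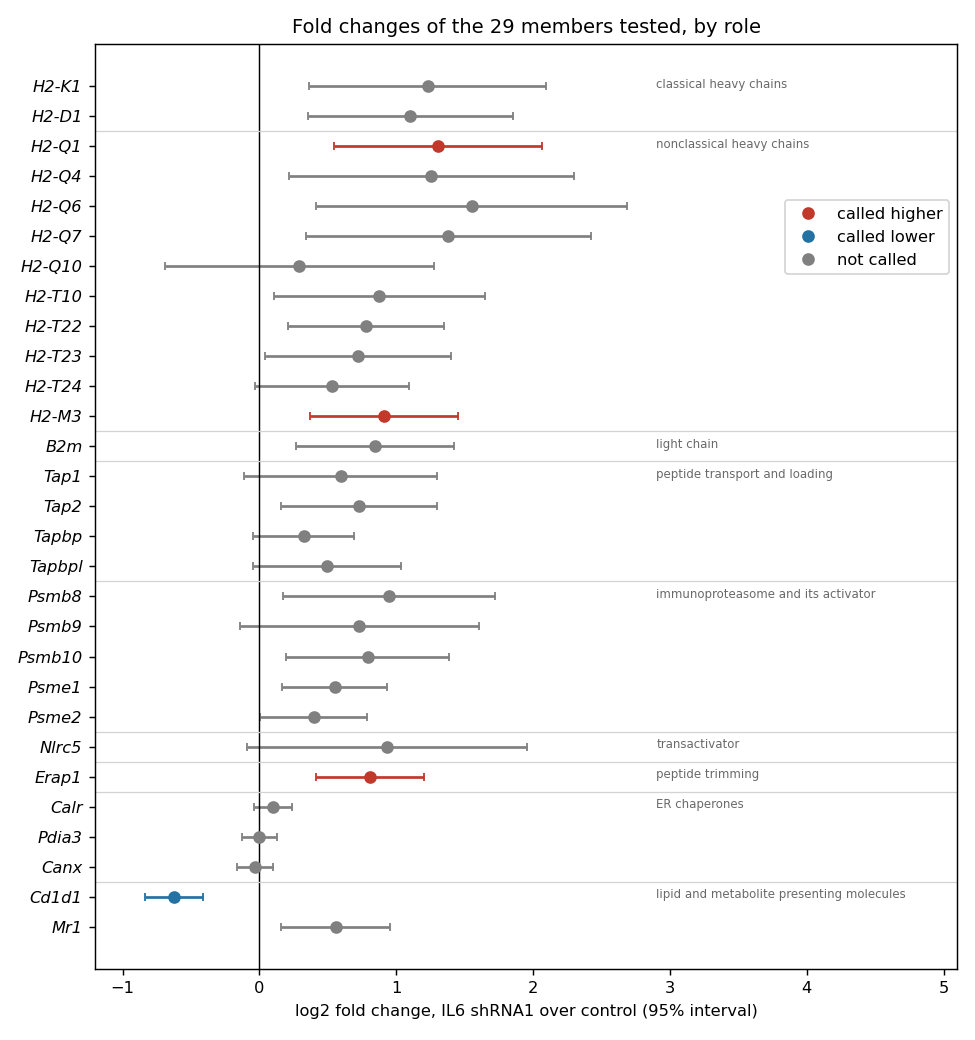
Log2 fold change of each of the 29 tested members, IL6 shRNA1 over control, with its 95% interval from edgeR, ordered by role; red and blue points passed the adjusted threshold. Apart from the ER chaperones and Cd1d1, every point lies above 0, and most intervals are wide.

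The classical heavy chains H2-K1 and H2-D1, which present peptides to CD8 T cells, were among the most abundant members. H2-K1 (chr17:33996017-34000347) had 881.1, 1588, 2059, 1494 and 2397 CPM in IL6 shRNA1 libraries 1 to 5, and 1171, 276.7, 1006, 549.3 and 587.6 CPM in control libraries 1 to 5. H2-D1 (chr17:35262730-35267499) had 934.9, 1614, 2062, 1537 and 2308 CPM against 1165, 340.3, 1070, 659.9 and 701.2 CPM. For both genes IL6 shRNA1 libraries 2 to 5 lay above every control, while IL6 shRNA1 library 1 lay below controls 1 and 3. The log2 fold change was 1.23 ± 0.39 for H2-K1 (SE, 95% interval 0.36 to 2.09, adjusted p = 0.066) and 1.10 ± 0.34 for H2-D1 (interval 0.35 to 1.85, adjusted p = 0.060). Neither passed the threshold by edgeR. DESeq2 and limma voom called both higher, where they called 9.66% and 6.08% of all genes higher.

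Beta-2 microglobulin, encoded by B2m (chr2:122147686-122153083), is the light chain shared by the heavy chains, Cd1d1 and Mr1. It had the highest level per length of all members, 1969 ± 448 FPKM (counts scaled by gene length and library size; SD, n = 5) in the IL6 shRNA1 libraries and 1105 ± 440 in the controls. Its CPM were 1158, 1579, 1970, 1619 and 2121 against 1355, 482.2, 1169, 780.8 and 921. The order of the libraries was that of the classical heavy chains at both ends, with library 5 of IL6 shRNA1 highest and control 2 lowest. Its log2 fold change was 0.84 ± 0.26 (SE, interval 0.26 to 1.42, adjusted p = 0.062). B2m was not called by edgeR but was called higher by DESeq2 and limma voom, as were H2-K1 and H2-D1. The FPKM of H2-K1 relative to B2m was 0.285 ± 0.041 in the IL6 shRNA1 libraries and 0.213 ± 0.038 in the controls (SD, n = 5), with overlapping groups.

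**Figure D2:**
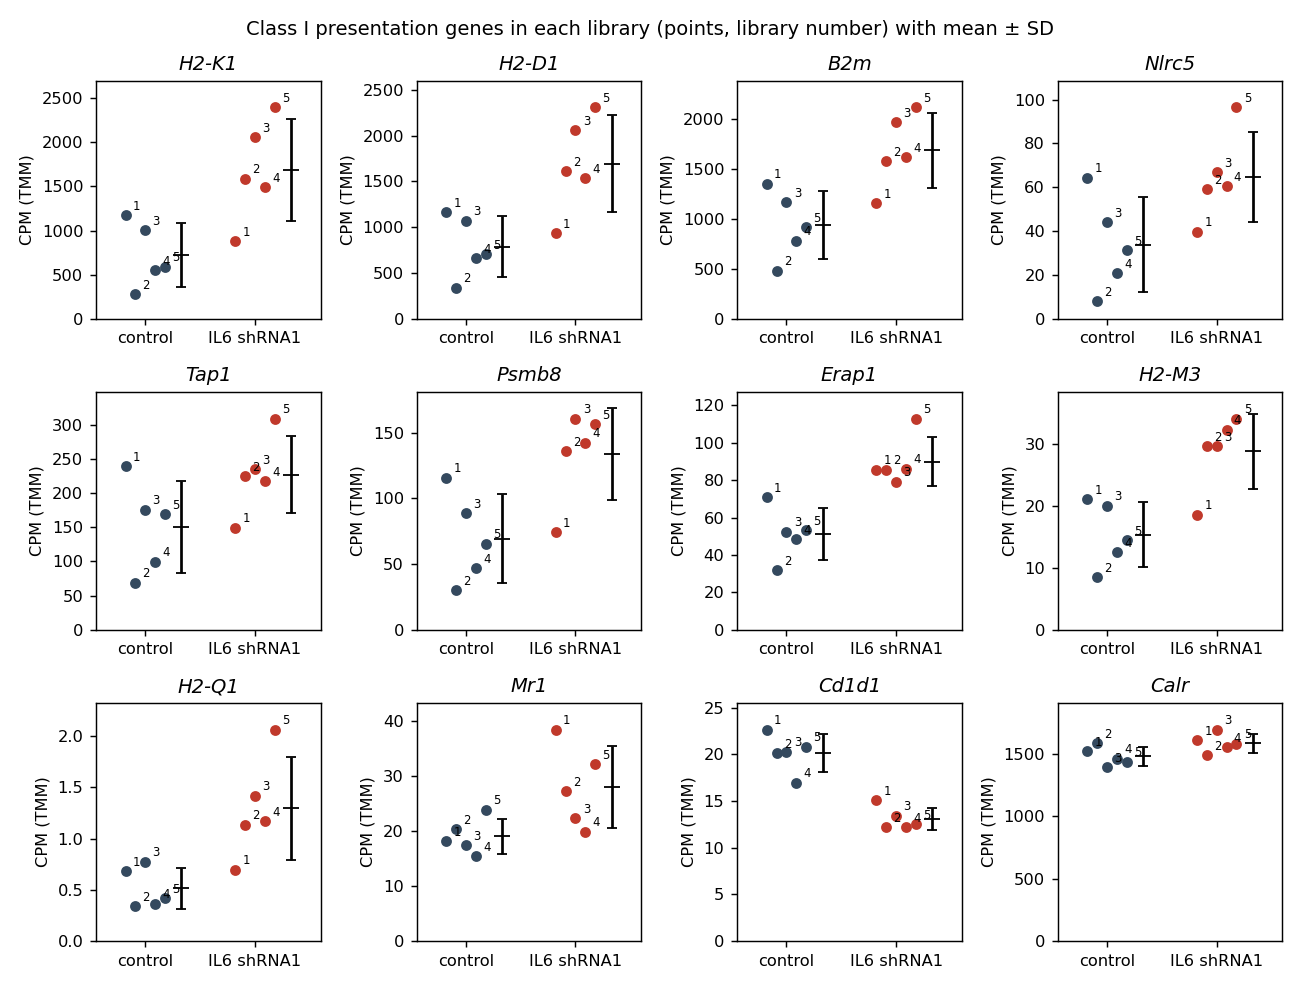
CPM of 12 members in each library, with the library number beside the point and the mean ± SD of each group (n = 5) in black. IL6 shRNA1 library 1 lies among the controls for most genes, control library 2 is lowest for the first 9 genes shown, and the groups separate for Erap1 and Cd1d1.

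Nonclassical heavy chains present to fewer or more specialised receptors and are encoded in the Q, T and M regions of chromosome 17. Of 11, 10 were tested, all 10 had a positive fold change, and 2 were called higher. Among all genes, 47.9% were positive and 5.62% were called higher. H2-Q1 was called from few counts, 7 to 39 per library: 0.695, 1.14, 1.42, 1.17 and 2.06 CPM against 0.679, 0.341, 0.773, 0.362 and 0.415. Libraries 2 to 5 of IL6 shRNA1 lay above every control, and library 1 lay below control 3. H2-Q1 had a log2 fold change of 1.30 ± 0.35 (SE, adjusted p = 0.036). H2-M3, which presents N-formylated peptides, had 18.6, 29.7, 29.6, 32.4 and 34.1 CPM against 21.1, 8.52, 20.1, 12.5 and 14.5. Library 1 of IL6 shRNA1 stood apart below the other IL6 shRNA1 libraries and below controls 1 and 3. H2-M3 had a log2 fold change of 0.91 ± 0.24 (SE, adjusted p = 0.039). Both calls were lost when any of IL6 shRNA1 libraries 2, 3, 4 or 5 or control libraries 2, 4 or 5 was left out, with adjusted p up to 0.085 for H2-Q1 and 0.090 for H2-M3.

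The other Q genes had wider errors. H2-Q6 ranged from 62.0 to 303.9 CPM in the IL6 shRNA1 libraries and from 21.5 to 96.8 in the controls (log2 fold change 1.55 ± 0.51, adjusted p = 0.075). H2-Q7, a Qa-2 antigen gene, ranged from 138.8 to 435.9 against 39.7 to 194 (1.38 ± 0.47, adjusted p = 0.080), and H2-Q4 from 113.4 to 339.6 against 25.5 to 169 (1.26 ± 0.47, adjusted p = 0.10). H2-Q10, a secreted chain known from liver, was near the lower limit of measurement at 0.641 to 1.85 against 0.178 to 1.53 CPM (0.29 ± 0.45, adjusted p = 0.70). H2-Q2 had 0 to 7 counts per library and was not tested. It had the lowest level of all members, 0.0238 ± 0.0166 FPKM against 0.0524 ± 0.0570 (SD, n = 5).

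Of the T region genes, H2-T23 encodes Qa-1, the ligand of the NK receptor NKG2A, and ranged from 82.7 to 194.1 CPM against 42.9 to 137.3 (log2 fold change 0.72 ± 0.31, adjusted p = 0.14). H2-T22, a ligand of some gamma-delta T cells, ranged from 116.4 to 222 against 58.7 to 149.5 (0.78 ± 0.26, adjusted p = 0.074). Its near copy H2-T10 ranged from 7.75 to 15.2 against 2.19 to 10.7 (0.88 ± 0.35, adjusted p = 0.12), and H2-T24 from 6.41 to 11 against 3.21 to 8.66 (0.53 ± 0.26, adjusted p = 0.18). By edgeR, 0 of these 4 passed the threshold, and all 4 pairs of ranges overlapped.

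Reads can be split between near copies, so single heavy chains are less certain than their sum. Of the distinct 50-base stretches of its transcripts, H2-T22 shared 34.5% with another gene, H2-T10 32.9%, H2-Q6 32%, H2-Q7 26.4%, H2-D1 12.8%, H2-K1 9.63% and H2-M3 0.576%. The 13 heavy chains summed to 2363, 4190, 5460, 3961 and 6248 CPM in IL6 shRNA1 libraries 1 to 5 and to 3124, 820.4, 2767, 1552 and 1703 CPM in the controls. The sum was lowest in control 2 and highest in IL6 shRNA1 library 5, as were H2-K1 and H2-D1, while H2-T10 and H2-T22 were highest in library 3 and H2-Q10 and H2-T24 in library 4. H2-K1 and H2-D1 together gave 77.2% ± 0.8 of the summed heavy chain FPKM in the IL6 shRNA1 libraries and 76.9% ± 1.2 in the controls (SD, n = 5), so the balance between classical and nonclassical chains differed by less than the spread between libraries.

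Tap1 and Tap2 form the peptide pump, and Tapbp (tapasin) and Tapbpl (TAPBPR) edit the peptide that is loaded. Tap1 (chr17:34187553-34197225) had 149.5, 224.5, 234.5, 217.2 and 309 CPM against 239.3, 68.9, 175.7, 99.6 and 168.8. Control 1 reached higher than 4 of the 5 IL6 shRNA1 libraries. Fitted log2 fold changes were 0.59 ± 0.32 for Tap1 (SE, adjusted p = 0.23), 0.72 ± 0.26 for Tap2 (adjusted p = 0.090), 0.32 ± 0.17 for Tapbp (adjusted p = 0.21) and 0.49 ± 0.24 for Tapbpl (adjusted p = 0.19). The FPKM ratio of Tap1 to Tap2 was 1.97 ± 0.13 and 2.08 ± 0.27 (SD, n = 5), with overlapping groups. Tapbpl lies on chromosome 6 among genes with lower values: its 58 tested neighbours within 2 Mb had a median log2 fold change of -0.20, and 12 of them were called lower. Over chromosome 6 as a whole, 797 tested genes had a median of -0.23, with 21 called higher and 216 lower. The part of the region or chromosome in the value of Tapbpl was not tested.

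Psmb8, Psmb9 and Psmb10 are the interferon-inducible catalytic subunits that replace Psmb5, Psmb6 and Psmb7 in the immunoproteasome, and Psme1 and Psme2 form its PA28 activator. Psmb8 (chr17:34197721-34201454) had 74.0, 135.8, 160.7, 142.4 and 156.5 CPM against 115.8, 30.2, 88.7, 46.7 and 65.4. Psmb9 (chr17:34181987-34187764) had 45.6, 99.7, 117.2, 106.3 and 111.5 against 97.6, 22.6, 74.6, 33.9 and 60.9. In both, IL6 shRNA1 libraries 2 to 5 lay above all controls. Library 1 lay below controls 1 and 3, and for Psmb9 also below control 5. Fitted log2 fold changes were 0.95 ± 0.35 for Psmb8 (SE, adjusted p = 0.10), 0.73 ± 0.39 for Psmb9 (adjusted p = 0.23), 0.79 ± 0.27 for Psmb10 (adjusted p = 0.079), 0.55 ± 0.17 for Psme1 (adjusted p = 0.064) and 0.40 ± 0.18 for Psme2 (adjusted p = 0.16). Of these 5, 0 were called by edgeR (4 at an unadjusted p under 0.05), 3 by DESeq2 and 0 by limma voom. The shares of all genes called higher were 5.62% by edgeR, 9.66% by DESeq2 and 6.08% by limma voom. At an unadjusted p under 0.05 by edgeR, 15.5% of all genes were higher.

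The constitutive counterparts varied less. The shares over all genes given for the immunoproteasome apply here too. Of 14 constitutive 20S subunits tested, 0 were called by edgeR (5 at an unadjusted p under 0.05), 1 by DESeq2 and 0 by limma voom. Their median log2 fold change was 0.18, with Psmb5 at 0.15 ± 0.12, Psmb6 at 0.12 ± 0.10 and Psmb7 at 0.23 ± 0.08 (SE). The most abundant, Psmb4, was at 0.17 ± 0.09 (adjusted p = 0.24). The FPKM ratio of Psmb8 to Psmb5 was 0.446 ± 0.091 in the IL6 shRNA1 libraries and 0.257 ± 0.121 in the controls (SD, n = 5). Psmb9 to Psmb6 was 0.517 ± 0.124 against 0.340 ± 0.169, and Psmb10 to Psmb7 was 2.57 ± 0.50 against 1.73 ± 0.65. All 3 ratios were lowest in control 2 and highest in IL6 shRNA1 library 5, and the groups overlapped in each.

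**Figure D3:**
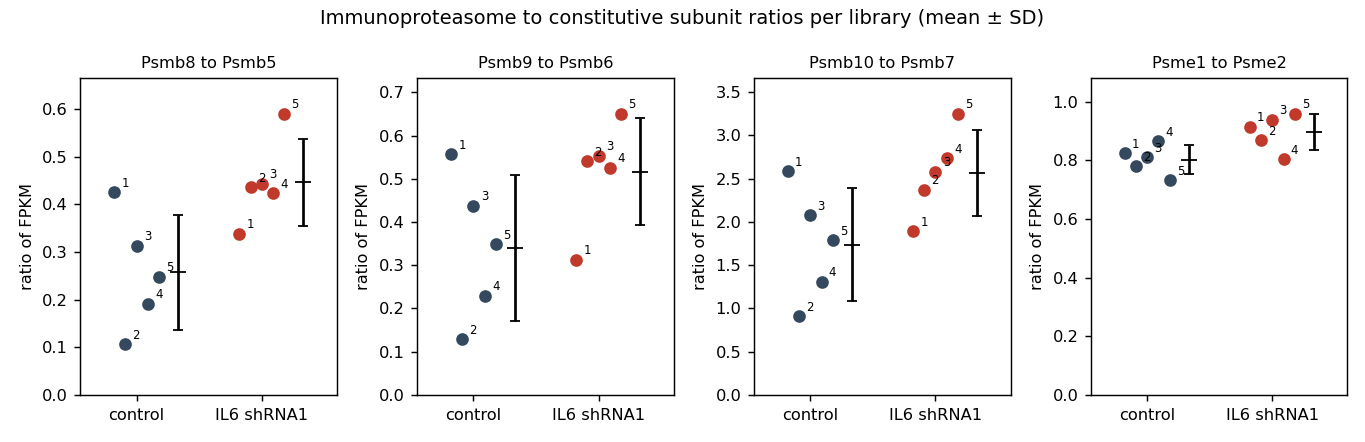
Ratio of the FPKM of each immunoproteasome subunit to its constitutive counterpart, and of Psme1 to Psme2, in each library, with the mean ± SD of each group (n = 5). In the first 3 panels the lowest point is control library 2 and the highest is IL6 shRNA1 library 5.

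Nlrc5 (chr8:94434356-94527272), the transactivator that drives transcription of class I genes, had 39.6, 59.0, 66.8, 60.6 and 96.4 CPM against 64.2, 8.08, 44.1, 20.7 and 31.2. The largest library was 11.9 times the smallest, and control 1 lay above IL6 shRNA1 libraries 1, 2 and 4. Nlrc5 had a log2 fold change of 0.93 ± 0.46 (SE, interval -0.09 to 1.96, adjusted p = 0.19). Among all genes, 5.62% were called higher and 6.16% lower. Of 20 tested genes of interferon signalling and class I regulation, 1 was called higher, Irf2 (log2 fold change 0.39 ± 0.10, adjusted p = 0.029), and 1 lower, Rfxank, a subunit of the RFX complex (-0.37 ± 0.08, adjusted p = 0.020). Their median was 0.22. Irf1 was at 0.50 ± 0.30 (adjusted p = 0.28), Ifng at 1.00 ± 0.51 from 1 to 20 counts (adjusted p = 0.20), and the most abundant, Jak1, at -0.08 ± 0.11 (adjusted p = 0.68).

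Erap1 (chr13:74639568-74693201), the ER aminopeptidase that trims peptides to the length class I binds, rose in the IL6 shRNA1 libraries. It had 85.7, 85.6, 79.1, 86.1 and 112.9 CPM against 71.0, 31.9, 52.4, 48.3 and 53.2. All 5 IL6 shRNA1 values lay above all 5 controls, including library 1, which was low for most other members. Erap1 had a log2 fold change of 0.81 ± 0.18 (SE, interval 0.41 to 1.20, adjusted p = 0.020), and the call was kept when each library was left out in turn (adjusted p 0.0091 to 0.048). It was lost with a leukocyte score as a covariate (0.38, adjusted p = 0.39). The call was also lost without 3 libraries chosen from these data as farthest out on the first principal component (0.55, adjusted p = 0.082). Adjusted p ranged from 0.00041 to 0.39 in 23 alternatives. No 50-base stretch of Erap1 was shared with another gene. Its 3′ end overlaps Cast on the opposite strand by 834 bases, and the sources used here do not give the strand setting of the counting.

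The chaperones calreticulin (Calr), ERp57 (Pdia3) and calnexin (Canx) serve the folding of many glycoproteins besides class I. They were level across the libraries: Calr ranged from 1488 to 1693 CPM against 1391 to 1584, Pdia3 from 1019 to 1113 against 1018 to 1130, and Canx from 574.4 to 613.8 against 548.3 to 629.8. Fitted log2 fold changes were 0.10 for Calr (interval -0.04 to 0.24), 0.00013 for Pdia3 (interval -0.13 to 0.13) and -0.03 for Canx (interval -0.16 to 0.10), with adjusted p of 0.30, 1.0 and 0.74. The H2-K1 to Calr ratio of FPKM varied 8.68 times over the 10 libraries, while the coefficient of variation of CPM was 5.87% for Calr and 56.9% for H2-K1. Of 14 other ER folding genes tested, the glucosyltransferase Uggt1 was called higher (0.47 ± 0.09, adjusted p = 0.010), and Sec61a1 (-0.34 ± 0.07), Ganab (-0.37 ± 0.08) and Prkcsh (-0.31 ± 0.07) were called lower (adjusted p 0.012, 0.013 and 0.016). Among all genes, 5.62% were called higher and 6.16% lower. The list's median was -0.04, and its most abundant gene, P4hb, was at -0.09 ± 0.10.

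Cd1d1 (chr3:86995834-86999441), which presents lipids to NKT cells, fell in the IL6 shRNA1 libraries. It had 15.1, 12.2, 13.4, 12.2 and 12.5 CPM against 22.7, 20.1, 20.3, 16.97 and 20.8. The groups did not overlap, and the lowest control stood above the highest IL6 shRNA1 library. Cd1d1 had a log2 fold change of -0.62 ± 0.10 (SE, interval -0.84 to -0.41, adjusted p = 0.0044), and the call was kept when each library was left out in turn (adjusted p 0.0033 to 0.015). It was lost with the covariate (-0.61, adjusted p = 0.078) and without the 3 libraries (-0.60, adjusted p = 0.069), over a range of 2.0e-06 to 0.078 in 23 alternatives. Cd1d1 shared 19.1% of its 50-base stretches with Cd1d2, which had 1 to 8 counts per library. Relative to B2m, the FPKM of Cd1d1 was 0.00275 ± 0.00093 in the IL6 shRNA1 libraries and 0.00804 ± 0.00342 in the controls (SD, n = 5), without overlap. This ratio reuses the Cd1d1 values and divides them by a gene with a higher mean in the IL6 shRNA1 libraries. It is therefore no separate support. Its 53 tested neighbours within 2 Mb had a median log2 fold change of -0.08, and 3 were called lower, where 6.16% of all genes were. Of 6 fibroblast and pericyte markers tested, 2 were called lower in the same libraries, Lum (-0.97 ± 0.18) and Dcn (-0.62 ± 0.13), while the most abundant, Col3a1, was at -0.06 ± 0.24, with summed levels that overlapped between groups, and their part in the value of Cd1d1 was not tested.

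Mr1 (chr1:155127277-155146814), which presents vitamin B metabolites to MAIT cells, had 38.4, 27.2, 22.3, 19.8 and 32.1 CPM against 18.1, 20.3, 17.4, 15.4 and 23.8. Library 1 was the highest of all 10 here, unlike in the peptide path. The log2 fold change was 0.56 ± 0.18 (SE, adjusted p = 0.068). The 30 tested neighbours of Mr1 within 2 Mb had a median log2 fold change of 0.45, and 12 of them were called higher. Over chromosome 1 as a whole, 917 tested genes had a median of 0.32, with 268 called higher and 1 lower. The part of the region or chromosome in the value of Mr1 was not tested.

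The 24 tested members of the peptide path, leaving out the ER chaperones, Cd1d1 and Mr1, followed a common order of libraries. Control 2 was the lowest library for 23 of 24, and control 5 for the remaining gene, H2-Q10. IL6 shRNA1 library 5 was highest for 16, library 3 for 5 and library 4 for 3. Within the IL6 shRNA1 group, library 1 had a median rank of 4 among the 10 libraries, below control 1 at 6 and control 3 at 5. Control 1 exceeded IL6 shRNA1 library 1 in 22 of the 24. The groups overlapped for 23 of these 24 members.

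**Figure D4:**
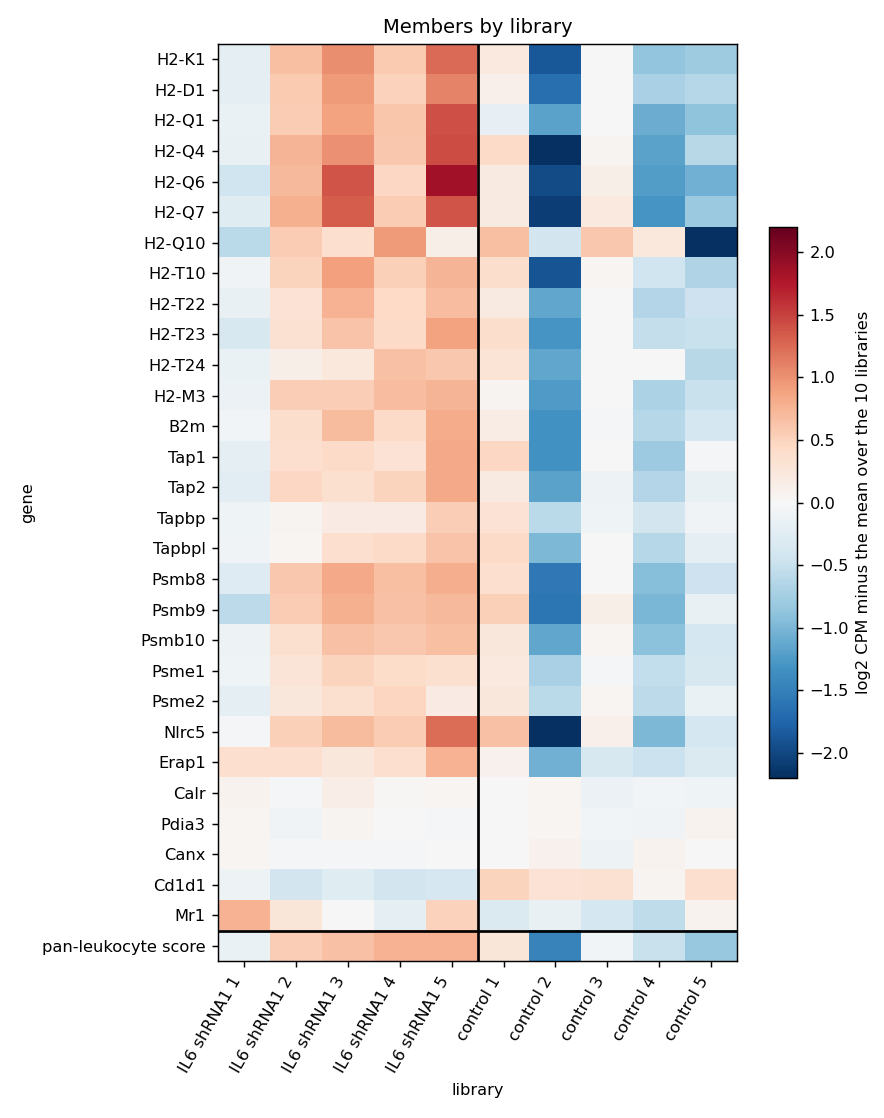
Log2 CPM of each tested member minus its mean over the 10 libraries, with the mean of 7 pan-leukocyte markers on the same scale in the bottom row. Control library 2 is lowest for most members and for the marker score, and the ER chaperone rows are almost without colour.

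Leukocyte markers followed a similar order. The pan-leukocyte score averages the centred log2 CPM of Ptprc, Cd52, Coro1a, Laptm5, Ptpn6, Ikzf1 and Vav1. It was -0.14, 0.54, 0.65, 0.76 and 0.77 in IL6 shRNA1 libraries 1 to 5. In the controls it was 0.26, -1.46, -0.06, -0.49 and -0.83. Control 2 was lowest and IL6 shRNA1 library 5 highest, and library 1 again lay below controls 1 and 3, as for the heavy chains. Of its 7 genes, Laptm5 (0.87 ± 0.24, adjusted p = 0.041) and Ikzf1 (1.10 ± 0.31, adjusted p = 0.048) were called higher, and Ptprc was at 0.86 ± 0.32 (adjusted p = 0.10). All 7 were higher at an unadjusted p under 0.05 by edgeR, and DESeq2 called 6 higher and limma voom 3. Among all genes, 5.62% were called higher and 15.5% were higher at an unadjusted p under 0.05 (edgeR). DESeq2 called 9.66% of all genes higher and limma voom 6.08%. Of 12 macrophage markers, 11 were called higher, with a median log2 fold change of 1.12 and summed levels of 1781 to 2974 CPM against 780.3 to 1781. These include Csf1r (0.86 ± 0.20), Cx3cr1 (1.04 ± 0.25), Lyz2 (0.71 ± 0.18) and C1qb (1.23 ± 0.30). Of 11 tested T and NK cell markers, 0 were called by edgeR (3 at an unadjusted p under 0.05), DESeq2 or limma voom, with a median of 0.91 and summed levels of 51.1 to 82.7 CPM against 38.2 to 68.9. Of the 11, 10 had a positive fold change, where 47.9% of all genes did. The 1 negative gene was the most abundant, Trac, at -0.26 ± 0.14 (adjusted p = 0.25). In bulk RNA, fewer cells of a type and less RNA per cell cannot be told apart.

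With the pan-leukocyte score as a covariate, 0 members were called by edgeR (2 higher and 1 lower at an unadjusted p under 0.05), and the median log2 fold change of the 29 members was 0.01, with 15 of 29 positive. H2-K1 was then at 0.07, B2m at 0.07 and Nlrc5 at -0.29, while Cd1d1 stayed near its value without the covariate. Over all genes, 0.312% were called higher and 0.206% lower in that fit, in which the score and the group share variance. Relative to Ptprc, the leukocyte gene CD45, the FPKM of B2m was 342 ± 53 in the IL6 shRNA1 libraries and 365 ± 81 in the controls (SD, n = 5). For H2-K1 this ratio was 97.8 ± 23.4 against 76.45 ± 15.02, and for Erap1 2.19 ± 0.40 against 2.45 ± 0.69. The groups overlapped in all 3 ratios. The part of leukocyte RNA in the results on class I genes was not tested beyond these values.

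Without IL6 shRNA1 library 5 and controls 2 and 5, which lie farthest out on the first principal component, 0 members were called by edgeR (6 higher and 1 lower at an unadjusted p under 0.05), and the median of the 29 was 0.45, with 26 positive. Over all genes, 0.846% were called higher and 0.533% lower. These 3 libraries were chosen from the same data. Of the 24 tested peptide path members, IL6 shRNA1 library 5 was highest for 16 and control 2 lowest for 23. Leaving them out therefore lowers most of these fold changes by construction, and the fit is no independent check of them. IL6 shRNA1 library 5 also held the most RNA of muscle, fat and skin markers, 7546 CPM summed against 25.3 to 1646 in the other 9 libraries, led by Acta1 (2.75 ± 1.27, adjusted p = 0.17), and the part of such tissue was not tested. The number of members called higher was 13 without IL6 shRNA1 library 1, where 9.47% of all genes were called higher and 8.71% lower, and 11 without control 1, where 6.95% were higher and 5.4% lower. It was 1 without any of IL6 shRNA1 libraries 2, 3 or 5 or controls 2, 4 or 5, where 2.72% to 4.56% of all genes were called higher. H2-K1, H2-D1 and B2m passed only in the first 2 of these fits that leave out 1 library, with lowest adjusted p of 0.036, 0.030 and 0.033.

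**Figure D5:**
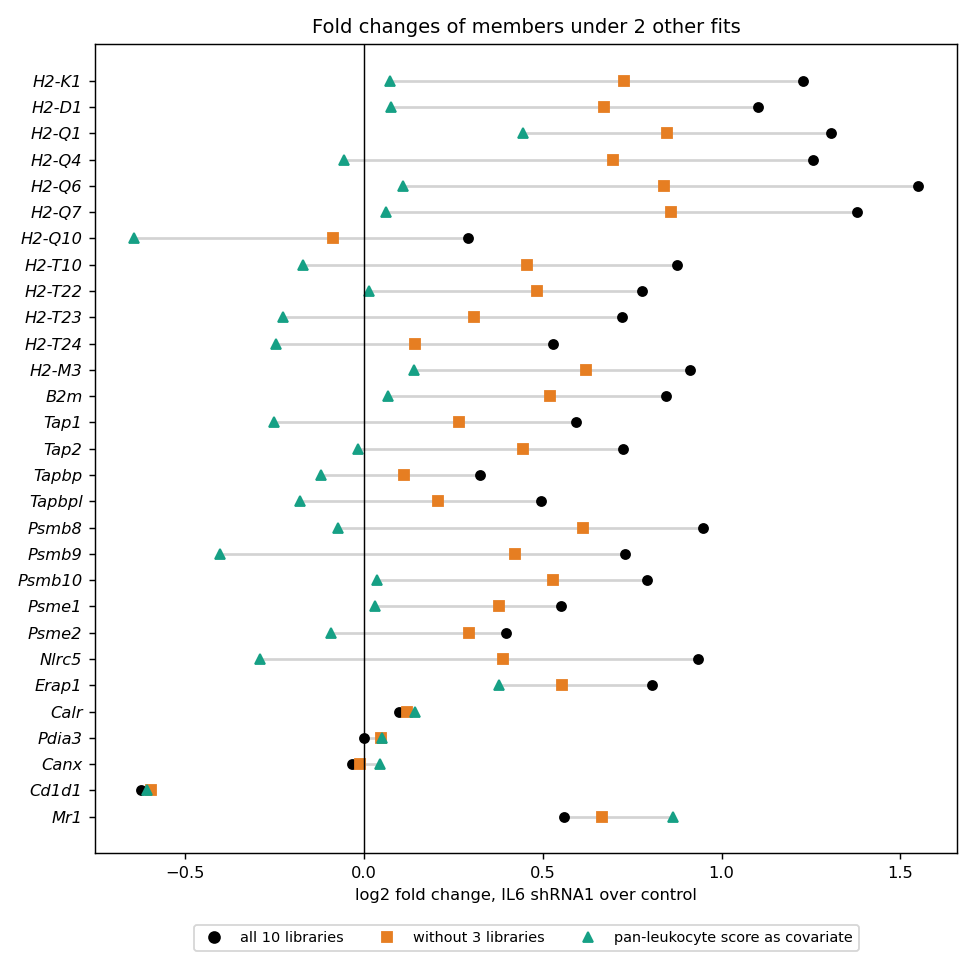
Log2 fold change of each tested member with all 10 libraries (black), without IL6 shRNA1 library 5 and controls 2 and 5 (orange), and with the pan-leukocyte score as a covariate (green). With the covariate, most peptide path values lie near or below 0, while Cd1d1 stays close to -0.6 in all 3 fits.

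Genes of related presentation pathways are given beside the members, where 5.62% of all genes were called higher and 6.16% lower. Of 12 MHC class II genes tested, 4 were called higher: the protease Ctss (log2 fold change 1.37 ± 0.31, adjusted p = 0.023), H2-Aa (1.41 ± 0.38, 0.042), H2-Eb1 (1.41 ± 0.39, 0.044) and the invariant chain Cd74 (1.38 ± 0.39, 0.046). The median of that list was 1.22. Of 8 tested class I-like genes outside the members, Mill1 was called higher (2.19 ± 0.49 from 4 to 89 counts, adjusted p = 0.018), as was the iron regulator Hfe (0.84 ± 0.21, 0.029), and the most abundant, the IgG receptor Fcgrt, was at -0.19 ± 0.08 (adjusted p = 0.15). Of 11 tested ligands of NK and T cell receptors, the costimulators Cd80 (1.12 ± 0.27, adjusted p = 0.024) and Cd86 (1.24 ± 0.33, 0.037) were called higher and the NKG2D ligand Ulbp1 lower (-0.45 ± 0.13, 0.044). The most abundant, Nectin2, was at 0.62 ± 0.29 (adjusted p = 0.18).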

How the data were processed

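RNA of 10 mouse samples was sequenced, 5 per group. The authors deposited raw counts per gene as whole numbers, and beside them FPKM values, which a script found to be the count scaled by a gene length and the column total. Per the submitters' processing notes, the tools were STAR 2.7.0f, featureCounts of Subread 1.6.4, Trim Galore 0.6.6, FastQC 0.11.9, SAMtools 1.11 and R 4.0.4, and the builds GRCm38 and mm10. Strandedness, gene annotation, multi-mapping and the FPKM tool are not given in the sources used. Heavy chain paralogs can therefore exchange or lose reads. Library totals are given with the report. Counting error weighs most on H2-Q1, H2-Q2 and H2-Q10, with at most 39 counts in any library. Its share in the spread between libraries was not computed for the other members, such as H2-T10 (from 45 counts), H2-T24 (from 66) and Cd1d1 (from 237).

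Counts were tested in R 4.3.3 with edgeR 4.0.16: filterByExpr by group (minimum count 10), TMM factors, estimateDisp, glmQLFit with robust dispersion and glmQLFTest on the group, with Benjamini-Hochberg adjustment over all 15064 genes tested and calls at an adjusted p under 0.05. Each adjusted p in the report is from this fit unless another is named. The SE is the log2 fold change divided by the square root of its F statistic, and CPM carry the TMM factors. Il6 was also compared by an exact permutation test over 252 regroupings. The script was tested on simulated counts. Levels of different genes were compared in FPKM only. Alternatives were other scaling factors, other filters, DESeq2 1.42.0, limma 3.58.1 (voom, and log2 of FPKM plus 1 or 0.1), a fit without robust dispersion, an adjusted p under 0.01, a replicate block, the pan-leukocyte score as a covariate, and leaving out 1 library or 3. Sequences came from RefSeq (GRCm38.p6), shared 50-base stretches from GENCODE M21 transcripts, and figures from matplotlib 3.10.9.

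All 30 members are named. Values per library are given for the called members, for H2-K1, H2-D1, B2m, Nlrc5, Tap1, Psmb8 and Psmb9, and for Mr1, which was added after its values were seen. Of the other lists the report uses, up to 4 called genes with the smallest p and the most abundant gene are named, with Irf1, Ifng, Psmb5 to Psmb7 and Ptprc, and 1 further gene of this rule is not reported here. Members, lists and alternatives were chosen with earlier results of these data known.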

Additional observations from a re-analysis of the deposited data

Results flagged for a closer look

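In each group of 5 libraries, the highest and lowest CPM of each tested member were compared with the nearest other value by Dixon's ratio, and 4 values stood apart among 58 groups examined. Chance alone sets apart about 1 in 20 groups. IL6 shRNA1 library 1 was the low value for 3 members: H2-M3 at 18.6 CPM, Psmb8 at 74.0 CPM and Psmb9 at 45.6 CPM, each below every other IL6 shRNA1 library. IL6 shRNA1 library 5 was the high value for Erap1, at 112.9 CPM. No control library stood apart by this measure, although control 2 was lowest for most peptide path members.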

How the results depend on the processing

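Of 15064 genes tested, 1775 were called. That count was 3005 with DESeq2, 381 at an adjusted p under 0.01, 755 with the replicate block, 78 with the pan-leukocyte covariate and 212 without 3 libraries, and 864 to 2774 when each library was left out in turn. The 3 members called higher became 15 with DESeq2, 6 with limma voom, 0 at an adjusted p under 0.01, 1 with the replicate block (Erap1), 0 with the covariate, 0 without 3 libraries, and 1 to 13 when each library was left out. The 1 member called lower, Cd1d1, was kept in all alternatives except the covariate (0) and without 3 libraries (0). Other scaling factors left both member counts as they were. H2-Q1 did not pass the filter of 1 CPM in 5 libraries, so that alternative gave it no value.

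Signs changed only for members that were not called. With the covariate the log2 fold change was -0.056 for H2-Q4, -0.64 for H2-Q10, -0.17 for H2-T10, -0.23 for H2-T23, -0.24 for H2-T24, -0.25 for Tap1, -0.015 for Tap2, -0.12 for Tapbp, -0.18 for Tapbpl, -0.073 for Psmb8, -0.40 for Psmb9, -0.092 for Psme2, -0.29 for Nlrc5 and 0.044 for Canx. Without 3 libraries H2-Q10 was at -0.086, and Pdia3 ranged from -0.018 to 0.028 when each library was left out. The cause of these changes was not tested. Fewer samples enter the fits that leave libraries out.

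Libraries with the same number correlated at -0.296, -0.0635, 0.124, 0.277 and -0.253 in their deviations from the group means. Of the 10 libraries, 2 correlated best with their own number. With so few pairs, these values cannot decide whether the numbers in the titles pair the samples. The main fit assumed no pairing. Depth limits H2-Q1, H2-Q2 and H2-Q10, with at most 39 counts in any library.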
